A study of Mus musculus with 12 samples.

Results

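The 8 genes described here encode the machinery of MHC class I antigen presentation: the heavy chains *H2-K1*, *H2-D1* and *H2-T23*, the light chain *B2m*, the peptide transporter subunits *Tap1* and *Tap2*, the loading factor *Tapbp* and the transcriptional activator *Nlrc5*. They were taken by name, for their role in the pathway, from the 55421 genes listed, and all 8 were among the 22592 tested, whose counts summed over libraries exceeded 20. Poly(A) RNA from the hippocampus of 12 mice was sequenced, 3 in each of 4 groups. WT-Veh and KO-Veh were wild-type and *Fmr1* KO mice injected intraperitoneally with vehicle, and WT-Nut3 and KO-Nut3 were the same genotypes injected with Nutlin-3, a small molecule inhibitor of the p53 ubiquitin ligase MDM2. Per the methods, Nutlin-3 was given in DMSO at 10 mg/kg in 5 injections on alternate days. Injections were made at 2 months of age and tissue was collected at 6 months. The study describes its mice as C57B/L6, and describes *Fmr1* KO mice that carried a Nestin-GFP transgene. Whether the sequenced animals carried it is not stated in the sources used here. Reads on genes numbered 17150820 to 20040482 per library.

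*Fmr1*, the gene knocked out in KO mice, was lower in every KO library. It measured 79.5, 75.3 and 77.7 CPM (counts scaled to library size, with TMM factors) in WT-Veh and 75.2, 74.0 and 78.3 CPM in WT-Nut3. It measured 32.7, 32.5 and 37.3 CPM in KO-Veh and 30.6, 28.5 and 35.7 CPM in KO-Nut3. The genotypes did not overlap, although reads on the gene remained in KO libraries. Markers of CA pyramidal neurons were present throughout, with a summed level of 585 to 984 CPM, as were those of dentate granule neurons, at 361 to 567 CPM. 4 libraries stood apart by markers of choroid plexus epithelium, a tissue next to the hippocampus: KO-Nut3 RH6, RH8 and RH13 and WT-Nut3 RH9, at 422 to 5135 CPM against 39.7 to 67.8 CPM in the others.

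MHC class I molecules display peptides from inside the cell at its surface. A polymorphic heavy chain pairs with beta-2 microglobulin in the endoplasmic reticulum, and the TAP transporter, a dimer of TAP1 and TAP2, brings in peptides made by the proteasome. Tapasin, the product of *Tapbp*, bridges the empty heavy chain to TAP and helps in the selection of peptides. H2-K and H2-D are the classical heavy chains of this strain background, while H2-T23, also called Qa-1, is a nonclassical chain that natural killer receptors read. NLRC5 is drawn to class I promoters by factors bound to their X and Y boxes, and interferons and NF-kappaB raise these genes through an interferon-stimulated response element and a kappaB site. In the brain, class I is low in most cells at rest, is present on endothelium and microglia, and is expressed by some neurons, where roles in synapse refinement have been described.

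The promoters of *H2-K1*, *H2-D1* and *B2m* are shown because they hold TGACG 20 bases before ATTGG, a spacing chosen after the sequences were seen. Sites of the kinds through which class I genes are known to be controlled are marked in them. The sequences are those of RefSeq on GRCm38.p6, where 6 of the 8 genes had a promoter entry (*Tap2* and *Nlrc5* did not match). Each stretch reads 5′ to 3′ on the strand of the gene, begins 80 bases before TGACG, and lies upstream of the start. *H2-K1* has 2 RefSeq starts. Its stretch lies upstream of the second and runs past the first, which puts its last CCAAT beyond the first start. Capitals mark matches on either strand to an exact kappaB sequence of 10 bases, the first run of capitals in *H2-K1* and *H2-D1*. They also mark an interferon response element core (TTTCNNTT), an X2 box core (TGACG) and a Y box (CCAAT, or ATTGG on the opposite strand). Other forms of the kappaB site are not marked. The positions are chr17:34000334-34000468 on the minus strand for *H2-K1*, chr17:35262913-35263047 on the plus strand for *H2-D1* and chr2:122147529-122147663 on the plus strand for *B2m*.
H2-K1: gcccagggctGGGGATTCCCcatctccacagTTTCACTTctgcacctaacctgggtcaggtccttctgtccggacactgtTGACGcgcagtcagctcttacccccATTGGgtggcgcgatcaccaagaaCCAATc
H2-D1: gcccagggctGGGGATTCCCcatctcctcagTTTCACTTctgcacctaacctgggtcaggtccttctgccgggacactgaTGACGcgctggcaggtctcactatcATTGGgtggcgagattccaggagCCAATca
B2m: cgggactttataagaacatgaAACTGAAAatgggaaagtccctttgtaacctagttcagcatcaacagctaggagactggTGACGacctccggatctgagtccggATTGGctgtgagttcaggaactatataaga

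Promoters were searched from 250 bases before to 50 bases after the start, on both strands. The kappaB site was held by *H2-K1* and *H2-D1*, and by 0.126% of the 27025 genes in the table. The pattern TGACG, 20 bases of any kind and ATTGG was held by *H2-K1*, *H2-D1* and *B2m* and by 0.0999% of genes (27 genes). This spacing was chosen after the sequences were seen, and *H2-M3*, another heavy chain gene, was among the 27. The other patterns were common. TTTCNNTT was found in *H2-K1*, *H2-D1*, *B2m* and *H2-T23* and in 26.7% of genes, TGACG in *H2-K1*, *H2-D1*, *B2m* and *Tap1* and in 6228 genes, and CCAAT in all 6 genes and in 41.1%. The promoters of *H2-K1* and *H2-D1* were identical at 87.7% of 253 aligned bases. Each match describes letters in this window and not a bound site.

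Between genes, levels per exon length spanned a wide range, with the light chain far above its partners. The mean over 12 libraries was 65.0 CPM per kb for *B2m*, 14.7 for *H2-D1*, 10.2 for *H2-K1*, 5.90 for *Tapbp*, 2.97 for *H2-T23*, 1.47 for *Tap2*, 0.834 for *Tap1* and 0.193 for *Nlrc5*. The ranges over libraries of *H2-D1* (10.9 to 20.3 CPM per kb) and *H2-K1* (7.47 to 14.4) overlapped, as did those of *Tap2* (1.01 to 1.92) and *Tap1* (0.505 to 1.03). The other neighbours in this order did not overlap, although the lowest *H2-K1* library (7.465) and the highest *Tapbp* library (7.460) nearly met. This order holds for counts that pool both strands. Summing the counts of each strand keeps reads that overlap a gene on the other strand. The strand columns held near equal shares, so these reads may come from either gene. The sum raised *Tap2* from 323 to 759.9 reads per kb over the 12 libraries, above *H2-T23* at 658. It raised *Tapbp* from 1308 to 1821 reads per kb, closer to *H2-K1* at 2258. *Nlrc5* rested on 15 to 50 counts per library, against 812 to 1151 counts for *B2m*. By mean CPM, *B2m* stood at the 80.9th percentile of the genes tested and *Nlrc5* at the 36.8th.

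**Figure D1:**
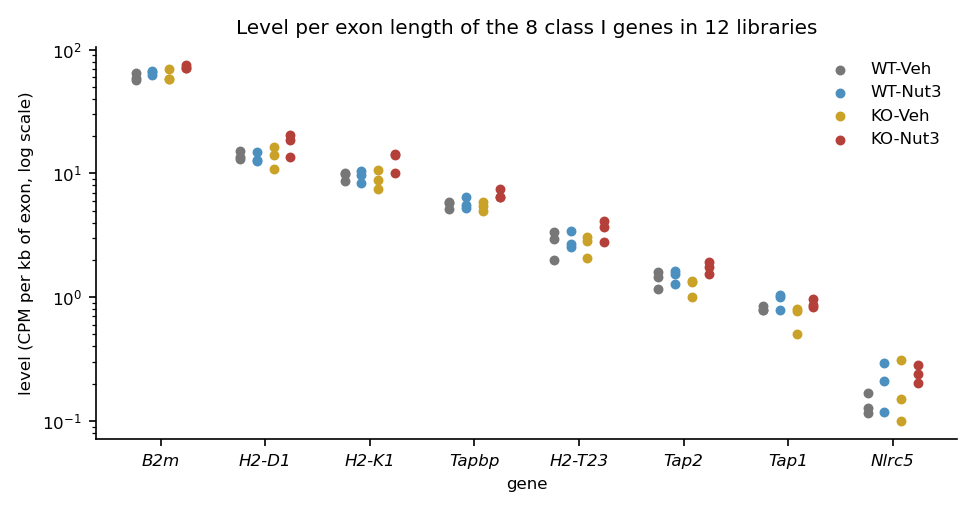
Level of each class I gene per kb of exon (vertical log axis, CPM per kb) in the 12 libraries, each point a library and each color a group, with genes in order of their mean. *B2m* has the highest mean, 65.0 CPM per kb, and *Nlrc5* the lowest, 0.193 CPM per kb.

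6 of the 8 genes lie on chromosome 17, in the MHC or beside it, and *B2m* and *Nlrc5* lie elsewhere (GRCm38, GENCODE M21). *H2-K1* (ENSMUSG00000061232) spans chr17:33996017-34000347, *H2-D1* (ENSMUSG00000073411) chr17:35262730-35267499 and *H2-T23* (ENSMUSG00000067212) chr17:36029773-36032855. *Tapbp* (ENSMUSG00000024308) spans chr17:33915899-33929292, *Tap1* (ENSMUSG00000037321) chr17:34187553-34197225 and *Tap2* (ENSMUSG00000024339) chr17:34203527-34216321. *B2m* (ENSMUSG00000060802) spans chr2:122147686-122153083 and *Nlrc5* (ENSMUSG00000074151) chr8:94434356-94527272. The counts used pool both strands, so reads that fall on genes of opposite strands are dropped. *Tap2* lost 57.5% of the reads that strand-wise counting assigned to it (it overlaps *Gm15821* and *Gm20496*). *Tapbp* lost 28.2% (*Gm19412*) and *Tap1* 7.25% (*Psmb9*). Whether the dropped reads came from these class I genes or from the genes they overlap is not known. Heavy chain genes resemble each other, and 3.59% of the 100-base windows of *H2-D1* transcripts, 3.15% of *H2-T23* and 0.957% of *H2-K1* occurred exactly in transcripts of other genes, so their counts carry that uncertainty.

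The effect of Nutlin-3 in *Fmr1* KO mice was examined by comparing KO-Nut3 with KO-Veh. All 8 class I genes had a fitted fold change above 1 in this comparison, from 1.17-fold for *B2m* to 1.42-fold for *H2-K1*, yet none passed the threshold of adjusted *P* under 0.05. Their median log2 fold change was 0.36, beside 0.0034 over all genes tested, of which 50.8% had a value above 0. 45 genes, 0.199% of those tested, passed the threshold in edgeR's quasi-likelihood test with Benjamini-Hochberg adjustment. Among the class I genes the smallest adjusted *P* was 0.402 with edgeR and 0.101 with DESeq2, both for *H2-K1*. At an unadjusted *P* under 0.05, 4 of the 8 genes (*H2-K1*, *Tapbp*, *Tap2* and *B2m*) were called, all of them with the higher level in KO-Nut3, where 7.6% of all genes were called in either direction and 5.75% in that one. The count of 4 became 2 without KO-Nut3 RH8, KO-Veh RH7 or KO-Veh RH10, 6 without KO-Nut3 RH13, and 7 without KO-Veh RH16.

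Among the classical heavy chains, *H2-K1* measured 42.3, 41.1 and 29.7 CPM in KO-Nut3 RH6, RH8 and RH13 and 25.9, 21.9 and 31.5 CPM in KO-Veh RH7, RH10 and RH16. KO-Nut3 RH6 and RH8 were above every other library, while RH13 was within the range of KO-Veh, so the groups overlapped. The log2 fold change was 0.51 (SE 0.16, 95% interval 0.15 to 0.87, unadjusted *P* = 0.0101, adjusted *P* = 0.402 in edgeR). Without a filter on low counts its adjusted *P* was 0.00941, the only setting tried in which a class I gene was called in this comparison. *H2-D1* followed the same order of libraries in KO-Nut3, with 52.2, 47.7 and 35.2 CPM, against 36.2, 28.0 and 42.2 CPM in KO-Veh. Its groups also overlapped, as RH13 was below KO-Veh RH7 and RH16, and its log2 fold change was 0.34 (SE 0.17, adjusted *P* = 0.690 in edgeR).

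*H2-T23*, the nonclassical chain, measured 10.6, 11.97 and 8.07 CPM in KO-Nut3 and 8.16, 5.98 and 8.83 CPM in KO-Veh. RH13 was again the lowest KO-Nut3 library and the groups overlapped. The log2 fold change was 0.41 (SE 0.19, adjusted *P* = 0.682 in edgeR). *B2m*, the light chain shared by all heavy chains, measured 60.7, 64.8 and 61.5 CPM in KO-Nut3 and 50.1, 50.2 and 59.6 CPM in KO-Veh. The groups were separate, with KO-Veh RH16 just below the KO-Nut3 libraries. The log2 fold change of *B2m* was 0.22 (SE 0.083, adjusted *P* = 0.548 in edgeR), the least of the 8 and the one with the least spread.

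**Figure D2:**
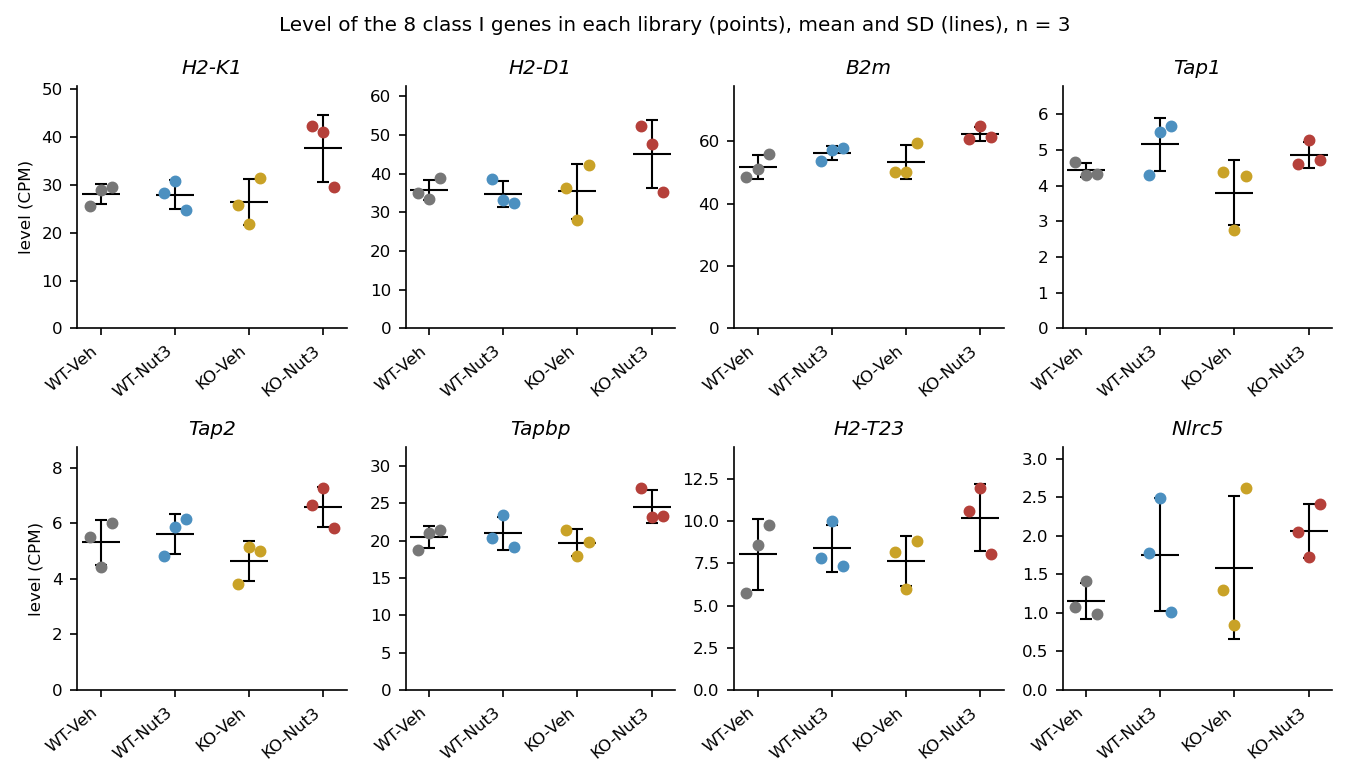
Level of each class I gene (CPM) in the libraries of the 4 groups, with points for libraries in order of their number and lines for the mean and SD (n = 3). *H2-K1*, *H2-D1* and *H2-T23* in KO-Nut3 have RH13 as their lowest library, at 29.7, 35.2 and 8.07 CPM.

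The peptide transport and loading genes had separate groups. *Tap1* measured 4.60, 5.27 and 4.72 CPM in KO-Nut3 against 4.39, 2.76 and 4.27 CPM in KO-Veh, where RH10 stood low. *Tap2* measured 6.66, 7.275 and 5.82 CPM in KO-Nut3 against 3.82, 5.13 and 5.01 CPM in KO-Veh. *Tapbp* measured 27.1, 23.2 and 23.3 CPM in KO-Nut3 against 21.5, 17.9 and 19.8 CPM in KO-Veh. In all 3 genes, as in *B2m*, the lowest KO-Nut3 library was above the highest KO-Veh library, and such a separation was seen for 7.85% of the genes tested. The log2 fold changes were 0.35 (SE 0.21, adjusted *P* = 0.749 in edgeR) for *Tap1*, 0.50 (SE 0.18, adjusted *P* = 0.514) for *Tap2* and 0.31 (SE 0.11, adjusted *P* = 0.458) for *Tapbp*. The counts of each strand were also summed, which adds reads that may come from an overlapping gene. *Tap2* then came to 0.27, while *Tapbp* came to 0.34 and *Tap1* to 0.365.

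*Nlrc5*, the activator of class I transcription, varied most among mice. It measured 2.05, 1.72 and 2.42 CPM in KO-Nut3 and 1.29, 0.846 and 2.62 CPM in KO-Veh, where RH16 alone exceeded all KO-Nut3 libraries. The log2 fold change was 0.38 (SE 0.39, 95% interval −0.48 to 1.24, adjusted *P* = 0.839 in edgeR). It came to 0.079 without KO-Veh RH10 and to 0.94 without KO-Veh RH16. The coefficient of variation over 12 libraries was 38.7% for *Nlrc5* and 9.39% for *B2m*.

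**Figure D3:**
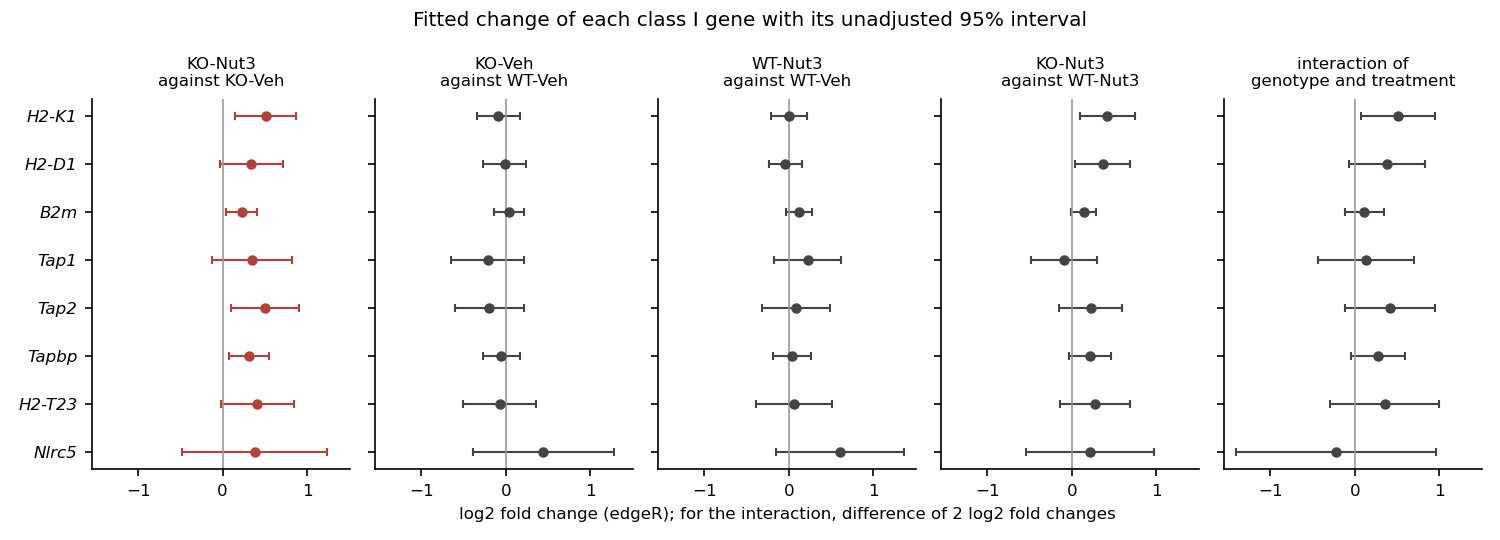
Fitted log2 fold change of each class I gene (horizontal axes) in the 4 comparisons of groups and, in the last panel, the interaction, with bars for the unadjusted 95% interval. All 8 values lie above 0 in KO-Nut3 against KO-Veh, from 0.22 to 0.51, and outside that comparison the interval lies above 0 for *H2-K1* and *H2-D1* in KO-Nut3 against WT-Nut3 and for *H2-K1* in the interaction.

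The loss of *Fmr1* under vehicle was examined by comparing KO-Veh with WT-Veh. No class I gene differed between these groups beyond the spread of their libraries. 2 of the 8 genes, *B2m* and *Nlrc5*, had log2 fold changes above 0, where 48.9% of all genes did, and the median was −0.06. This tally depended on single libraries. Without KO-Veh RH10, *H2-K1* (0.035), *H2-D1* (0.13), *Tapbp* (0.019) and *H2-T23* (0.080) also came above 0. Without KO-Veh RH16, *B2m* (−0.044) and *Nlrc5* (−0.11) came below 0. In WT-Veh RH2, RH5 and RH15, *H2-K1* measured 25.6, 28.9 and 29.5 CPM, *H2-D1* 35.1, 33.6 and 38.8 CPM and *B2m* 48.5, 51.0 and 56.1 CPM. The KO-Veh values of *H2-K1* and *H2-D1* lay on both sides of these, and those of *B2m* were within or above them. The log2 fold change of *H2-K1* was −0.09 with a 95% interval of −0.34 to 0.17, and that of *B2m* was 0.04 with an interval of −0.14 to 0.21. *Tap1*, at 4.66, 4.31 and 4.33 CPM in WT-Veh, had the lowest value, −0.215 (SE 0.20, adjusted *P* = 0.861 in edgeR), which came to −0.028 without KO-Veh RH10. *Nlrc5* had the largest in size, 0.45 (SE 0.39, adjusted *P* = 0.848 in edgeR), which came to −0.11 without KO-Veh RH16. 0 class I genes passed the threshold with edgeR or DESeq2 and 0 had an unadjusted *P* under 0.05, where 4 genes, 0.0177% of those tested, passed and 7.2% had an unadjusted *P* under 0.05 (3.08% with the higher level in KO-Veh). The groups overlapped for all 8, while 5.9% of genes were separate with KO-Veh higher and 6.46% with it lower.

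Nutlin-3 in wild-type mice was examined by comparing WT-Nut3 with WT-Veh. In WT-Nut3 RH1, RH9 and RH14, *H2-K1* measured 28.4, 30.8 and 24.7 CPM and *H2-D1* 38.6, 33.3 and 32.4 CPM, within or close to the range of WT-Veh. The log2 fold change was −0.00025 for *H2-K1*, with a 95% interval of −0.21 to 0.21, and −0.04 for *H2-D1*, with an interval of −0.23 to 0.15. *B2m* measured 53.6, 57.2 and 57.8 CPM and had a log2 fold change of 0.12 (interval −0.04 to 0.27), or 0.069 without WT-Veh RH2 and 0.18 without RH15. *Nlrc5* had the largest value, 0.61 (SE 0.35, adjusted *P* = 0.998 in edgeR), from 1.78, 2.48 and 1.01 CPM in WT-Nut3 against 1.075, 1.42 and 0.979 CPM in WT-Veh. Without WT-Nut3 RH9 it came to 0.28. 6 of the 8 values were above 0 with a median of 0.07, where 50.1% of all genes were. The groups overlapped for every class I gene, while 3.6% of genes were separate with WT-Nut3 higher and 3.92% with it lower. 0 of the 8 were called with edgeR or DESeq2 or at an unadjusted *P* under 0.05. The background was 0.0% called and 3.17% with an unadjusted *P* under 0.05 (1.84% with the higher level in WT-Nut3). The unadjusted count became 1 without WT-Nut3 RH14 and 1 without WT-Veh RH15.

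Treated mice of both genotypes were compared next, which used the same KO-Nut3 libraries as above. 7 of the 8 class I genes had log2 fold changes above 0 in KO-Nut3 against WT-Nut3, with a median of 0.22, where 51.1% of all genes did, and *Tap1* was the exception at −0.09 (−0.20 without WT-Nut3 RH1 and −0.020 without RH14). *H2-K1* had a log2 fold change of 0.42 (SE 0.14, unadjusted *P* = 0.0163, adjusted *P* = 0.928 in edgeR) and *H2-D1* of 0.37 (SE 0.14, unadjusted *P* = 0.0306, adjusted *P* = 0.928). They were the 2 genes of the 8 with an unadjusted *P* under 0.05, against 4.87% of all genes, or 2.8% with the higher level in KO-Nut3. This count of 2 fell to 0 without KO-Nut3 RH8 or without WT-Nut3 RH14. *B2m* was the only class I gene whose groups did not overlap, with the lowest KO-Nut3 library at 60.7 CPM and the highest WT-Nut3 library at 57.8 CPM, a separation held by 5.3% of genes. 0 of the 8 passed the threshold, as did 0.00443% of the genes tested.

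Whether the response to Nutlin-3 depended on genotype was tested by the interaction over all 12 libraries. The difference between the log2 fold changes in KO and WT mice was 0.51 for *H2-K1* (SE 0.20, 95% interval 0.08 to 0.95, unadjusted *P* = 0.0239, adjusted *P* = 0.993 in edgeR). It was 0.39 (SE 0.21) for *H2-D1*, 0.42 (SE 0.25) for *Tap2*, 0.36 (SE 0.30) for *H2-T23*, 0.28 (SE 0.15) for *Tapbp*, 0.13 (SE 0.27) for *Tap1*, 0.11 (SE 0.11) for *B2m* and −0.22 (SE 0.55) for *Nlrc5*. 0 class I genes passed the threshold and *H2-K1* alone had an unadjusted *P* under 0.05, against 0.0% and 4.17% of all genes (2.9% with a positive value). 7 of the 8 values were above 0, as were 51.3% of all genes. Leaving out single libraries turned the sign of *Nlrc5*, and that of *Tap1* without KO-Veh RH10 (−0.053). The adjusted *P* of *H2-K1* in edgeR was 0.0494 without a filter on low counts. Its unadjusted call was lost without KO-Nut3 RH6, KO-Nut3 RH8, KO-Veh RH10, WT-Nut3 RH14 or WT-Veh RH15. The count of genes with an unadjusted *P* under 0.05 rose to 2 without KO-Nut3 RH13, KO-Veh RH7, KO-Veh RH16 or WT-Nut3 RH9. It was also 2 with strand columns summed or without a filter. In bulk tissue, more cells of a type and more RNA per cell cannot be told apart in any of these values.

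Part of the class I genes varied together over the 12 libraries. Of 28 pairs, 9 had a Pearson correlation and 6 a Spearman correlation with an adjusted permutation *P* under 0.05. Libraries were permuted across the 4 groups, so a shift shared by a group can contribute to these values. How often pairs of other genes correlate to this extent was not tested. Among the 28 pairs *H2-K1* and *H2-D1* had the highest Pearson correlation of log2 CPM, r = 0.907 (permutation *P* = 0.00017, adjusted over the pairs 0.00476). Their Spearman's rho was 0.755 (permutation *P* = 0.00586, adjusted 0.036). Without the 2 libraries farthest from the median of *H2-K1*, r was 0.728. The libraries numbered up to RH8 and those from RH9 differed in their share of multimapped reads (3.07% to 3.22% against 3.33% to 3.55%), and within these blocks of 6 libraries r was 0.937 and 0.836. *H2-K1* and *H2-T23* followed by Pearson's r, with r = 0.863 (permutation *P* = 0.00057, adjusted 0.0056). Their rho of 0.888 (permutation *P* = 0.00029, adjusted 0.00812) was the highest of the 28 pairs. Their r was 0.813 without the 2 farthest libraries and 0.874 and 0.908 within blocks. *H2-K1* and *Tapbp* came next, with r = 0.836 (permutation *P* = 0.0006, adjusted 0.0056), rho = 0.790 (permutation *P* = 0.00346, adjusted 0.0323), r = 0.726 without the 2 farthest libraries and 0.872 and 0.773 within blocks. The light chain was then set beside each classical heavy chain. For *H2-K1* and *B2m*, r was 0.748 (permutation *P* = 0.00385, adjusted 0.0216), rho 0.748 (permutation *P* = 0.00749, adjusted 0.036), r 0.598 without the 2 farthest libraries and 0.960 and 0.765 within blocks. For *H2-D1* and *B2m*, r was 0.620 (permutation *P* = 0.0312, adjusted 0.073), rho 0.490 (permutation *P* = 0.109, adjusted 0.201), r 0.353 without the 2 farthest libraries and 0.916 and 0.679 within blocks. *Tap2* and *Nlrc5* had the lowest value, r = 0.138 (permutation *P* = 0.668). The ratio of *H2-K1* to *H2-D1* in CPM stayed between 0.715 and 0.924 in all 12 libraries, with a median of 0.773.

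A score of the 8 genes, the mean of their standardized log2 CPM, was highest in KO-Nut3 RH8 (1.24) and RH6 (1.23) and lowest in KO-Veh RH10 (−1.48). Of 15338 other genes with a mean of at least 1 CPM, the 10 most like this score over 12 libraries were *Ddx58* (r = 0.930), the RNA sensor RIG-I of the interferon system, *Wls* (0.919), a carrier of Wnt proteins, *Vstm4* (0.915), *Trim56* (0.908), a ubiquitin ligase of antiviral signaling, *Acadl* (0.907), an enzyme of fatty acid oxidation, *Ctsh* (0.903), a lysosomal protease, *Xrcc5* (0.892), a DNA repair subunit, *Aldh3b1* (0.891), *Dnah7b* (0.888), a ciliary dynein, and *F13a1* (0.885), a coagulation factor subunit of macrophages. All libraries enter both sides of these correlations and they are given as a description.

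Genes that surround the class I pathway were read from lists of their own, in KO-Nut3 against KO-Veh. Of all genes tested, 7.85% had separate groups with KO-Nut3 higher. Such genes were 3 of 4 tested heavy chains outside the MHC, 2 of 9 proteasome genes and 1 of 8 trimming and loading genes. The further heavy chains of the MHC had 9 of 12 genes tested, 0 called and a median log2 fold change of 0.41, 7 of the 9 being above 0. The most abundant, *H2-T22* and *H2-T24*, had values of 0.05 (SE 0.11) and −0.02 (SE 0.14). *H2-Q1* and *H2-Q2*, named after their values were seen, had the largest values (2.79 and 3.18) at 0.974 and 0.285 CPM on average, and their groups overlapped. *H2-Q1* was at 5.04 CPM in KO-Nut3 RH8, 1.39 CPM in RH6 and 0.110 CPM in RH13.

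Heavy chains encoded outside the MHC had 4 of 5 genes tested, 0 called and a median of 0.71, with all 4 above 0. *Hfe*, a regulator of iron uptake that pairs with beta-2 microglobulin, measured 11.2, 6.87 and 10.3 CPM in KO-Nut3 against 4.44, 4.62 and 5.07 CPM in KO-Veh. Its groups did not overlap and its fold change was 2.00 (SE 0.20 on the log2 scale, adjusted *P* = 0.105 in edgeR). DESeq2 gave *Hfe* an adjusted *P* of 0.00197, and edgeR one of 0.00562 without KO-Nut3 RH8. Without a filter on low counts, *Hfe* and *Fcgrt* were both called. *Fcgrt*, the neonatal Fc receptor, had separate groups and a log2 fold change of 0.50 (SE 0.16, adjusted *P* = 0.398 in edgeR), as had *Cd1d1*, which presents lipids, with 0.83 (SE 0.38, adjusted *P* = 0.663). *Hfe* was also at 9.54 CPM in WT-Nut3 RH9.

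Upstream of TAP, proteasome genes did not share a direction. Of 9 genes, 6 had log2 fold changes above 0, 0 were called and the median was 0.0057. The abundant *Psme3* and *Psmb6* had −0.04 and −0.03. *Psmb8*, a catalytic subunit of the immunoproteasome whose gene lies between *Tap1* and *Tap2*, measured 0.943, 1.09 and 2.20 CPM in KO-Nut3 against 0.568, 0.564 and 0.912 CPM in KO-Veh, with separate groups and a log2 fold change of 1.04 (SE 0.42, adjusted *P* = 0.598 in edgeR). *Psme1*, an activator subunit, had separate groups and 0.17 (SE 0.081). The 8 genes of peptide trimming and loading had 0 calls, 6 values above 0 and a median of 0.06. The chaperones *Calr* and *Canx* had 0.02 and 0.06, while *Erap1*, which trims peptides in the endoplasmic reticulum, measured 11.2, 12.9 and 12.3 CPM in KO-Nut3 against 8.98, 9.70 and 8.54 CPM in KO-Veh. Its log2 fold change was 0.41 (SE 0.12, adjusted *P* = 0.352 in edgeR).

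The 22 regulators of class I genes, among them the interferon receptors, JAK kinases, STAT and IRF factors and subunits of RFX, NF-Y and NF-kappaB, had 0 calls, 10 values above 0 and a median of −0.02. *Jak1* and *Creb1*, the most abundant, had −0.11 and −0.02, and *Ifngr1*, a chain of the interferon gamma receptor, had separate groups with 0.22 (SE 0.11, adjusted *P* = 0.687 in edgeR). Receptors that bind class I were at the edge of detection. 3 of 11 were tested and 0 called, with *Lilrb3* (listed as *Pirb*) at 0.522 CPM and *Lilrb4a* at 0.233 CPM on average. The 20 interferon-stimulated genes had 0 calls, 14 values above 0 and a median of 0.13. *Ifi27*, *Ifitm3*, which restricts virus entry, and *Bst2*, which tethers virus particles, had separate groups. Their log2 fold changes were 0.28 (SE 0.11), 0.62 (SE 0.21) and 0.68 (SE 0.24), with adjusted *P* of 0.577, 0.455 and 0.491 in edgeR. Separate groups with KO-Nut3 higher were thus seen for 1 of 22 regulators and 3 of 20 interferon-stimulated genes, against 7.85% of all genes.

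MHC class II genes, which present peptides from outside the cell, are given beside class I on the same 6 libraries. 4 of 6 genes passed the threshold, all upregulated in KO-Nut3: the chains *H2-Aa* (5.45-fold, adjusted *P* = 0.0123 in edgeR), *H2-Ab1* (4.90-fold, 0.0130) and *H2-Eb1* (6.97-fold, 0.00925), and the invariant chain *Cd74* (5.85-fold, 0.0111). They were at low levels, with *Cd74* at 8.71, 5.10 and 5.27 CPM in KO-Nut3 and 1.08, 0.902 and 1.25 CPM in KO-Veh. *Cd74* also reached 5.15 CPM in WT-Veh RH5 and 4.52 CPM in WT-Nut3 RH9. *H2-DMa*, the most abundant of the list, had a log2 fold change of −0.25 (SE 0.12) with separate groups (5.44% of genes were separate with KO-Nut3 lower), and *H2-DMb1* was 2.22-fold (SE 0.45 on the log2 scale), and neither passed. 0 of the 4 calls remained when all 12 libraries were fitted at once or when KO-Veh RH7, RH10 or RH16 was left out, and *H2-Ab1* was lost when the number block entered the fit. None of the 6 class II genes passed in KO-Veh against WT-Veh and their groups overlapped, but all 6 had log2 fold changes below 0 there, with a median of −1.40, and 4 had an unadjusted *P* under 0.05, where 7.2% of all genes had. In the other comparisons of groups and in the interaction, 0 genes of the class I, class II and interferon lists passed the threshold.

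**Figure D4:**
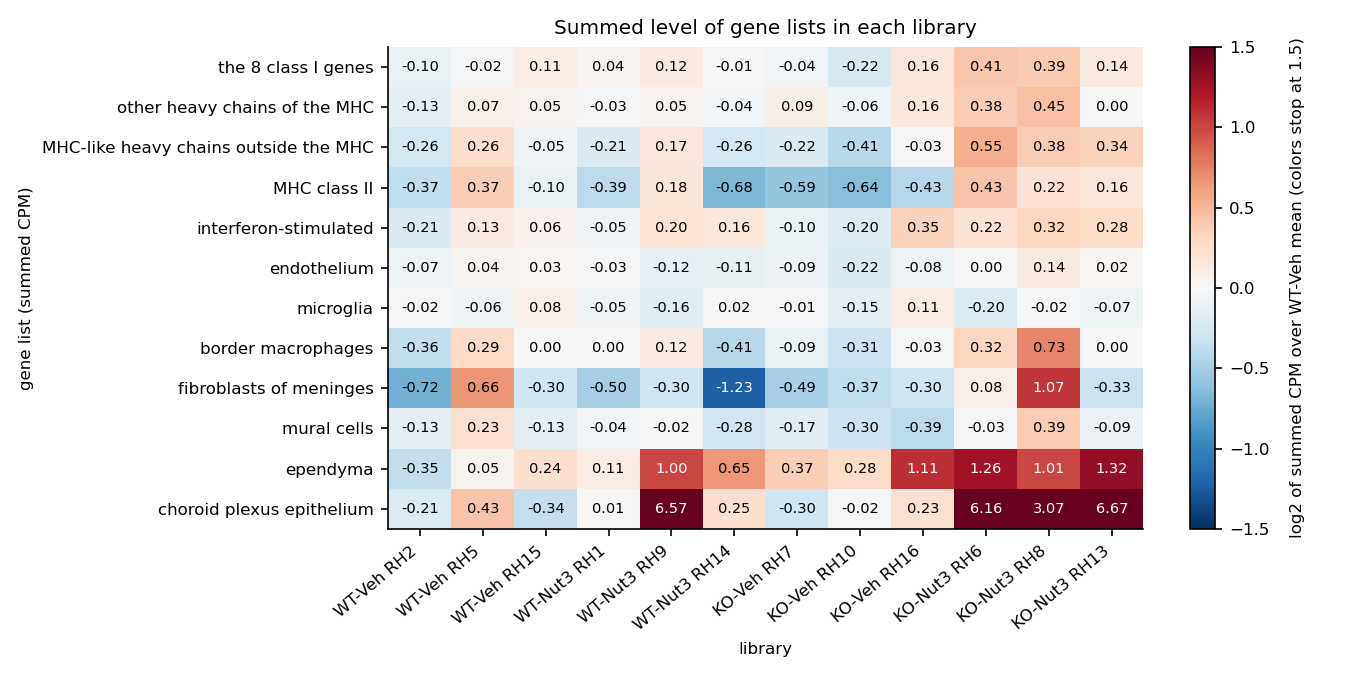
Summed CPM of each gene list (rows) in each library (columns), as log2 of its ratio to the mean of WT-Veh, printed in each cell and colored up to 1.5 in either direction. The class I genes reach 0.41 in KO-Nut3 RH6, 0.39 in RH8 and 0.14 in RH13, and choroid plexus epithelium markers reach 6.16, 3.07 and 6.67 in the same libraries and 6.57 in WT-Nut3 RH9.

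Markers of neighboring tissue differed between the libraries compared. Choroid plexus epithelium markers summed to 3594, 422 and 5135 CPM in KO-Nut3 RH6, RH8 and RH13 and to 40.9, 49.8 and 59.1 CPM in KO-Veh. They also summed to 4792 CPM in WT-Nut3 RH9, against 50.8 and 60.1 CPM in the other WT-Nut3 libraries. *Ttr*, the transthyretin gene, was the most abundant of this list in those 4 libraries, at 3091, 314 and 4520 CPM in KO-Nut3 and 4215 CPM in WT-Nut3 RH9. In the other 8 libraries the most abundant was *Kl*, or *Slc13a4* in WT-Veh RH5. All 12 choroid plexus markers had log2 fold changes above 0 in KO-Nut3 against KO-Veh and 5 were called (*Ttr*, *Folr1*, *Slc4a5*, *Slc13a4* and *Tmem72*). The calls numbered 11 with DESeq2, 12 without a filter on low counts, 2 with the filterByExpr filter or the number block, and 0 in the fit of all libraries. They numbered 8 without KO-Nut3 RH6, 12 without RH8, 2 without RH13, and 1 without any 1 of the KO-Veh libraries. The 8 class I genes together summed to 206, 203 and 171 CPM in KO-Nut3 RH6, RH8 and RH13 and to 151, 133 and 174 CPM in KO-Veh RH7, RH10 and RH16. Their sum was 169 CPM in WT-Nut3 RH9, beside 160 and 154 CPM in the other WT-Nut3 libraries and 145, 153 and 167 CPM in WT-Veh. RH13 had the highest choroid plexus level of the KO-Nut3 libraries and the lowest class I sum, and RH8 had the lowest choroid plexus level. In KO-Nut3 against KO-Veh, the log2 fold change of *H2-K1* was 0.42 without RH6, 0.44 without RH8 and 0.66 without RH13. That of *B2m* was 0.24, 0.19 and 0.24, and that of *H2-D1* was 0.22, 0.29 and 0.49. Since all KO-Nut3 libraries were above all KO-Veh libraries in these markers, the markers and the treatment cannot be told apart in that comparison. Without WT-Nut3 RH9, *H2-K1* had −0.074 in WT-Nut3 against WT-Veh and 0.496 in KO-Nut3 against WT-Nut3.

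Markers of meningeal fibroblasts summed to 137, 272 and 103 CPM in KO-Nut3 and 92.1, 100.2 and 106 CPM in KO-Veh, with 9 of 10 values above 0 and 1 call (*Igf2*). The fibroblast calls numbered 4 with DESeq2, 9 without a filter, 5 without KO-Nut3 RH13, and 0 without KO-Veh RH10 or RH16 or in the fit of all libraries. *Dcn* was the most abundant of this list in 11 libraries and *Slc13a3* in KO-Nut3 RH6. Border macrophage markers summed to 36.7, 48.6 and 29.4 CPM in KO-Nut3 and 27.5, 23.7 and 28.7 CPM in KO-Veh, with 8 of 8 values above 0, 0 calls and *Stab1* as the most abundant gene. Endothelial markers summed to 303, 334 and 309 CPM in KO-Nut3 and 286, 261 and 288 CPM in KO-Veh, with 6 of 10 values above 0 and 0 calls, and mural cell markers, at 219.8, 292 and 209.9 CPM against 199, 181 and 171 CPM, had 8 of 8 values above 0 and 0 calls. Microglial markers were no higher in KO-Nut3, at 364, 413 and 400 CPM against 416, 379 and 453 CPM in KO-Veh, with 1 of 12 values above 0 and 0 calls. Lymphocyte markers were near 0, with a summed level of 0.478 to 1.45 CPM and 4 of 10 genes tested. CA pyramidal neuron markers had 0 of 6 values above 0 and were lowest in KO-Nut3 RH6, at 585 CPM. Markers with an unadjusted *P* under 0.05 in edgeR and KO-Nut3 higher numbered 9 of 10 for fibroblasts and 5 of 10 for endothelium. They numbered 3 of 8 for border macrophages, 2 of 8 for mural cells and 0 of 12 for microglia, against 5.75% of all genes. Separate groups, KO-Nut3 higher, held for 4 fibroblast, 3 border macrophage, 5 endothelial, 4 mural and 0 microglial markers, against 7.85% of all genes. The part of these cell types in the class I values was not tested.

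The remaining lists had 0 calls in KO-Nut3 against KO-Veh. Values above 0 numbered 6 of 6 for ependyma, 5 of 5 for blood, 4 of 6 for astrocytes, 6 of 6 for oligodendrocytes and 0 of 6 for dentate granule neurons.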

How the data were processed

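The deposited files hold raw counts of reads per gene, which the authors made by mapping reads to mm10 with STAR (version not given in the sources used here). The methods name paired-end reads and the labels single reads. The column pooling strands was used, since the strand columns held near equal shares (50.1% to 50.4% on the first). A table of the whole series, with 12 columns, was not used. Groups came from the labels. Genes whose counts summed to over 20 (22592 genes) were tested by edgeR 4.0.16 (quasi-likelihood, two-sided, R 4.3.3, TMM factors), each comparison on its own 6 libraries and the interaction on all 12. *P*-values were adjusted over all genes, with 0.05 as the threshold. The SE is the size of the log2 fold change divided by the square root of *F*, and log2 CPM used a prior count of 1. Replicates were 3 mice per group. Intervals cover the spread of libraries in the fit.

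The members and all lists, 8 of the pathway and 13 of cell type markers, were chosen with earlier results of these data known. Of each pathway list, the genes named are those past the threshold, the 2 with the highest mean CPM and those with separate groups in KO-Nut3 against KO-Veh. Other names were chosen after their values were seen. Promoters came from RefSeq (GRCm38.p6). Correlations used 100000 permutations over all 12 libraries, without regard to group. Alternatives were DESeq2 1.42.0, DESeq2 size factors, the filterByExpr filter, no filter, all libraries in 1 fit, the number block as a term, CPM without TMM, counts of 1 strand and each library left out. Sums of both strand columns were added after the data were seen. The test was tried on simulated counts.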

Additional observations from a re-analysis of the deposited data

How the results depend on the processing

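In KO-Nut3 against KO-Veh, the log2 fold changes of all 8 class I genes stayed above 0 in every alternative fit, but their size moved. With each library left out, they ranged from 0.39 to 0.66 for *H2-K1*, 0.196 to 0.49 for *H2-D1*, 0.18 to 0.31 for *B2m*, 0.164 to 0.46 for *Tap1*, 0.37 to 0.58 for *Tap2*, 0.24 to 0.38 for *Tapbp*, 0.26 to 0.56 for *H2-T23* and 0.079 to 0.94 for *Nlrc5*. *H2-K1*, *H2-D1*, *Tap1*, *H2-T23* and *Nlrc5* were lowest without KO-Veh RH10, and *Nlrc5* was highest without KO-Veh RH16. Calls among them were made only without a filter on low counts, 1 gene (*H2-K1*) in this comparison and 1 (*H2-K1*) in the interaction. The number of DEGs depended on the setting, and the cause was not tested. In KO-Nut3 against KO-Veh, 45 became 245 with DESeq2, 544 without a filter, 0 with all 12 libraries in one fit, 20 with the number block as a term, and 6 to 266 with each library left out (266 without KO-Nut3 RH8, 6 without KO-Veh RH7 or RH10, and 7 without RH16). In KO-Veh against WT-Veh, 4 became 22 with DESeq2, 272 without a filter, 1 in the fit of all libraries, 21 with the block, and 2 to 11 with each library left out (2 without KO-Veh RH7 or RH10, and 11 without WT-Veh RH15). In WT-Nut3 against WT-Veh, 0 became 249 without a filter, 11 with the block and 0 to 1 with each library left out (1 without WT-Nut3 RH1). In KO-Nut3 against WT-Nut3, 1 became 7 with DESeq2, 38 without a filter and 0 to 7 with each library left out (2 without WT-Nut3 RH1, 0 without RH14 and 7 without RH9). In the interaction, 0 became 1 with DESeq2, 291 without a filter and 0 to 1 with each library left out (1 without WT-Nut3 RH1).

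Some log2 fold changes changed sign, most of them near 0 but also *Nlrc5*, which went from 0.45 to −0.11 in KO-Veh against WT-Veh without KO-Veh RH16. In the interaction *Nlrc5* also changed sign, with a range of −0.52 to 0.34 with each library left out. With the number block, *B2m* in KO-Veh against WT-Veh came to −0.013, and in WT-Nut3 against WT-Veh *Tap2* came to −0.017 and *H2-T23* to −0.026. There, *H2-K1* came to 0.000396 with DESeq2 and 0.000379 with its size factors, and *Tap2* to −0.050 with strand columns summed. With each library left out, log2 fold changes in KO-Veh against WT-Veh ranged from −0.22 to 0.035 for *H2-K1*, −0.15 to 0.13 for *H2-D1*, −0.044 to 0.105 for *B2m*, −0.32 to −0.028 for *Tap1*, −0.31 to −0.055 for *Tap2*, −0.11 to 0.019 for *Tapbp*, −0.26 to 0.10 for *H2-T23* and −0.11 to 0.75 for *Nlrc5*. In WT-Nut3 against WT-Veh they ranged from −0.074 to 0.076 for *H2-K1*, −0.12 to 0.023 for *H2-D1*, 0.069 to 0.18 for *B2m*, 0.15 to 0.34 for *Tap1*, 0.28 to 0.88 for *Nlrc5*, −0.036 to 0.19 for *Tap2*, −0.045 to 0.097 for *Tapbp* and −0.13 to 0.23 for *H2-T23*. In KO-Nut3 against WT-Nut3 they ranged from −0.052 to 0.55 for *Nlrc5*, −0.20 to −0.020 for *Tap1*, 0.34 to 0.57 for *H2-K1*, 0.25 to 0.52 for *H2-D1*, 0.11 to 0.17 for *B2m*, 0.13 to 0.31 for *Tap2*, 0.15 to 0.31 for *Tapbp* and 0.15 to 0.42 for *H2-T23*, and in the interaction −0.053 to 0.25 for *Tap1*, −0.52 to 0.34 for *Nlrc5*, 0.40 to 0.66 for *H2-K1*, 0.24 to 0.54 for *H2-D1*, 0.052 to 0.201 for *B2m*, 0.296 to 0.54 for *Tap2*, 0.19 to 0.36 for *Tapbp* and 0.19 to 0.53 for *H2-T23*. CPM without TMM and counts of 1 strand were run on group means alone. Of 32 means, 0 moved by more than their SD without TMM, and 13 and 12 did with the first and second strand, where *Tap2* came to between 10.7 and 14.7 CPM and *Tapbp* to between 24.4 and 32.1 CPM. No paired analysis was possible because the library numbers are unique and shared by no groups. Counts were lowest for *Nlrc5*, at 15 to 50 per library, and its coefficient of variation within KO-Veh was 58.2%.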
